A study of Caenorhabditis elegans with 52 samples.

Results

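The 6 genes described here encode short-chain dehydrogenases of the nematode Caenorhabditis elegans, and they were taken by gene ID from a table of 45461 gene IDs. They are R05D8.7 (dhsl-4 in RefSeq), R05D8.8 (dhs-14), R05D8.9 (cror-2 in RefSeq), R05D8.10 (dhs-15), F11A5.12 (stdh-2) and ZK816.5 (dhs-26). They were chosen by their fold changes between the drug U0126 and its solvent and between genotypes, as measured in these same libraries, so both are given below as descriptions, with a fold change and its error and with no p-value. The only differences tested for them are those between hours in the solvent and those between solvent and untreated worms.

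RNA was sequenced from whole young adult hermaphrodites in 52 libraries. PL worms carried mutations in puf-8 and lip-1 (24 libraries), PF worms carried mutations in puf-8 and fbf-1 (10 libraries), and N2 is the wild-type strain (18 libraries); allele names were not given in the labels. Worms were grown from synchronized larvae on plates, then held in liquid S medium with OP50 bacteria and either 100 uM U0126, an inhibitor of the kinase MEK, or DMSO, its solvent, or were collected untreated at 0 h. PL was sampled at 1, 2, 4, 6 and 18 h, with 3 libraries per group at 1 h and 2 elsewhere. PF was sampled at 1, 2, 4 and 6 h with 1 library per group, besides 2 untreated libraries. N2 was sampled at 1, 2, 6 and 18 h with 2 libraries per group. The labels do not say that replicates were separate cultures, so a p-value here reflects the spread among these libraries alone, which may be technical.

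Short-chain dehydrogenases are a large enzyme family that oxidize alcohols or reduce carbonyl groups with NAD or NADP as the cofactor. Their known substrates include steroids, retinoids, fatty acid intermediates, sugars and foreign compounds, and in worms many are made in the intestine, the main organ of fat storage and detoxification. PUF-8 and FBF-1 belong to the PUF family, which binds messenger RNAs and restrains them in the germline, and LIP-1 is a phosphatase that turns off the MAP kinase on which MEK acts. Germlines that lack such pairs of regulators can make sperm in place of oocytes.

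The 4 R05D8 genes lie next to each other on chromosome V, on the minus strand, between 2 chemoreceptor genes, srg-58 and srh-56. Neither flanking gene passed the filter on low counts: srg-58 had at most 6 counts in a library and srh-56 at most 2. The gene stdh-2 is also on chromosome V but on the plus strand, and its name marks it as a relative of steroid dehydrogenases. The gene dhs-26 is on chromosome X and overlaps 1 other gene model, which was not identified. On one side its neighbour is ZK816.1, whose level stayed between 0.147 and 3.01 CPM over all libraries. Here CPM is a gene's count relative to the total of its library on the usual RNA-seq scale. All 6 genes passed the filter of at least 1 CPM in at least 2 libraries. Neighbouring relatives can share reads, and the library kit does not mark strand, so reads of related or overlapping genes may have been split or mixed.

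Depth ran from 5370270 to 35120700 counts assigned to genes per library. Here CPM are given after TMM scaling, a method that adjusts library totals for differences in composition. Transcripts of the mutated genes were still counted in the mutants at reduced levels: lip-1 stood at 0.359 to 3.72 CPM in PL, 3.40 to 9.02 CPM in PF and 11.5 to 96.4 CPM in N2, and fbf-1 stood at 0.357 to 3.88 CPM in PF, 13.02 to 39.4 CPM in PL and 11.3 to 52.7 CPM in N2. The level of puf-8 was 3.22 to 36.6 CPM in PL, 3.38 to 11.8 CPM in PF and 26.2 to 221 CPM in N2. A lower level was not particular to a mutated gene, as lip-1 was also below N2 in PF. The puf-8 ranges of PL and N2 overlapped. Of the libraries, 2 sets stood apart from another replicate of their own group. The summed level of 10 sperm genes was 4034 CPM in N2 untreated replicate 2, against 26.4 CPM in replicate 1 and 13.9 to 51.5 CPM in the other N2 libraries. In the PL 1 h group, replicates 1 and 2 had 1589 and 870.5 CPM of 10 molting genes in U0126 and 1160 and 1390 CPM in DMSO, while replicate 3 had 90.8 CPM in U0126 and 110 CPM in DMSO. In N2 the molting genes differed between whole groups. At 1 and 2 h they summed to 86.7 to 233 CPM in DMSO and 89.1 to 265 CPM in U0126. At 6 h they stood at 591.8 and 645.9 CPM in DMSO, against 275.2 and 326.6 CPM in U0126. At 18 h they stood at 529.4 and 632.7 CPM in DMSO, against 147.6 and 178.8 CPM in U0126. Their part in the N2 values of the 6 genes was not tested. The values at 1 h in PL are given with all 3 libraries, and with replicate 3 alone beside them or in the next sentence. RNA came from whole worms, so fewer cells of a type and less RNA per cell cannot be told apart.

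R05D8.9 went with U0126 in all 3 genotypes. It stood at or below 2.25 CPM in every DMSO library and reached 485 CPM in the drug. In PL at 1 h it stood at 28.2, 13.5 and 44.5 CPM in U0126, against 0.812, 0.470 and 0.752 CPM in DMSO. At 2 h in PL it stood at 83.7 and 120.8 CPM in U0126, against 0.0575 and 0.260 CPM in DMSO. At 4 h, the hour of its highest level in PL, the values were 310.8 and 251.7 CPM in U0126 and 0.676 and 1.81 CPM in DMSO. No U0126 library of PL overlapped a DMSO library at these hours. Such separation is described here and below without its share over all genes, which was not counted. At 6 h the level was lower again, with 72.2 and 63.4 CPM in U0126 against 1.74 and 1.304 CPM in DMSO, and at 18 h it was 10.99 and 28.1 CPM in U0126 against 0.342 and 0.710 CPM in DMSO. The log2 fold changes of U0126 over DMSO in PL were 5.40 ± 0.66 at 1 h, 9.30 ± 0.98 at 2 h, 7.89 ± 0.88 at 4 h, 5.47 ± 0.79 at 6 h and 5.22 ± 0.84 at 18 h (fitted value ± SE, 3 libraries per group at 1 h and 2 at the other hours). At 1 h replicate 3 alone of the PL libraries gave 5.87, so the value there was as large without the libraries with high molting genes.

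In N2 the same gene was lower in U0126 at 1 h than in PL, and it was highest at 6 h among the hours sampled. It stood at 2.71 and 4.79 CPM in U0126 at 1 h, against 0 and 0.368 CPM in DMSO. At 2 h it stood at 37.4 and 42.5 CPM in U0126, against 0.0542 and 0.289 CPM in DMSO. At 6 h the values were 133 and 136 CPM in U0126 and 0.158 and 0.449 CPM in DMSO. All U0126 libraries lay above all DMSO libraries at each of these hours, with log2 fold changes of 3.97 ± 0.89, 7.81 ± 0.94 and 8.74 ± 0.92 at 1, 2 and 6 h. At 18 h the U0126 libraries had come down to 4.45 and 5.01 CPM, and the DMSO libraries had no count. There 225 counts in U0126 stood against 0 in DMSO, so the gene was at least 55.4-fold higher, taking a floor of 3 counts over the DMSO group.

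PF had 1 library per hour and group, so each hour is a ratio of 2 libraries whose interval covers counting error only. R05D8.9 stood at 29.6, 104.8, 145.8 and 484.7 CPM in U0126 at 1, 2, 4 and 6 h, against 0.892, 2.25, 0.959 and 0.676 CPM in DMSO. The ratio of U0126 to DMSO was 33.2 at 1 h (95% exact interval 13.8 to 104), 46.7 at 2 h (29.3 to 79.1), 152 at 4 h (64.9 to 469) and 717 at 6 h (377 to 1569). With the hour as a factor, the log2 fold change over the 4 hours was 7.22 ± 0.55. The PF U0126 library at 6 h held the highest level of this gene in the series.

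**Figure D1:**
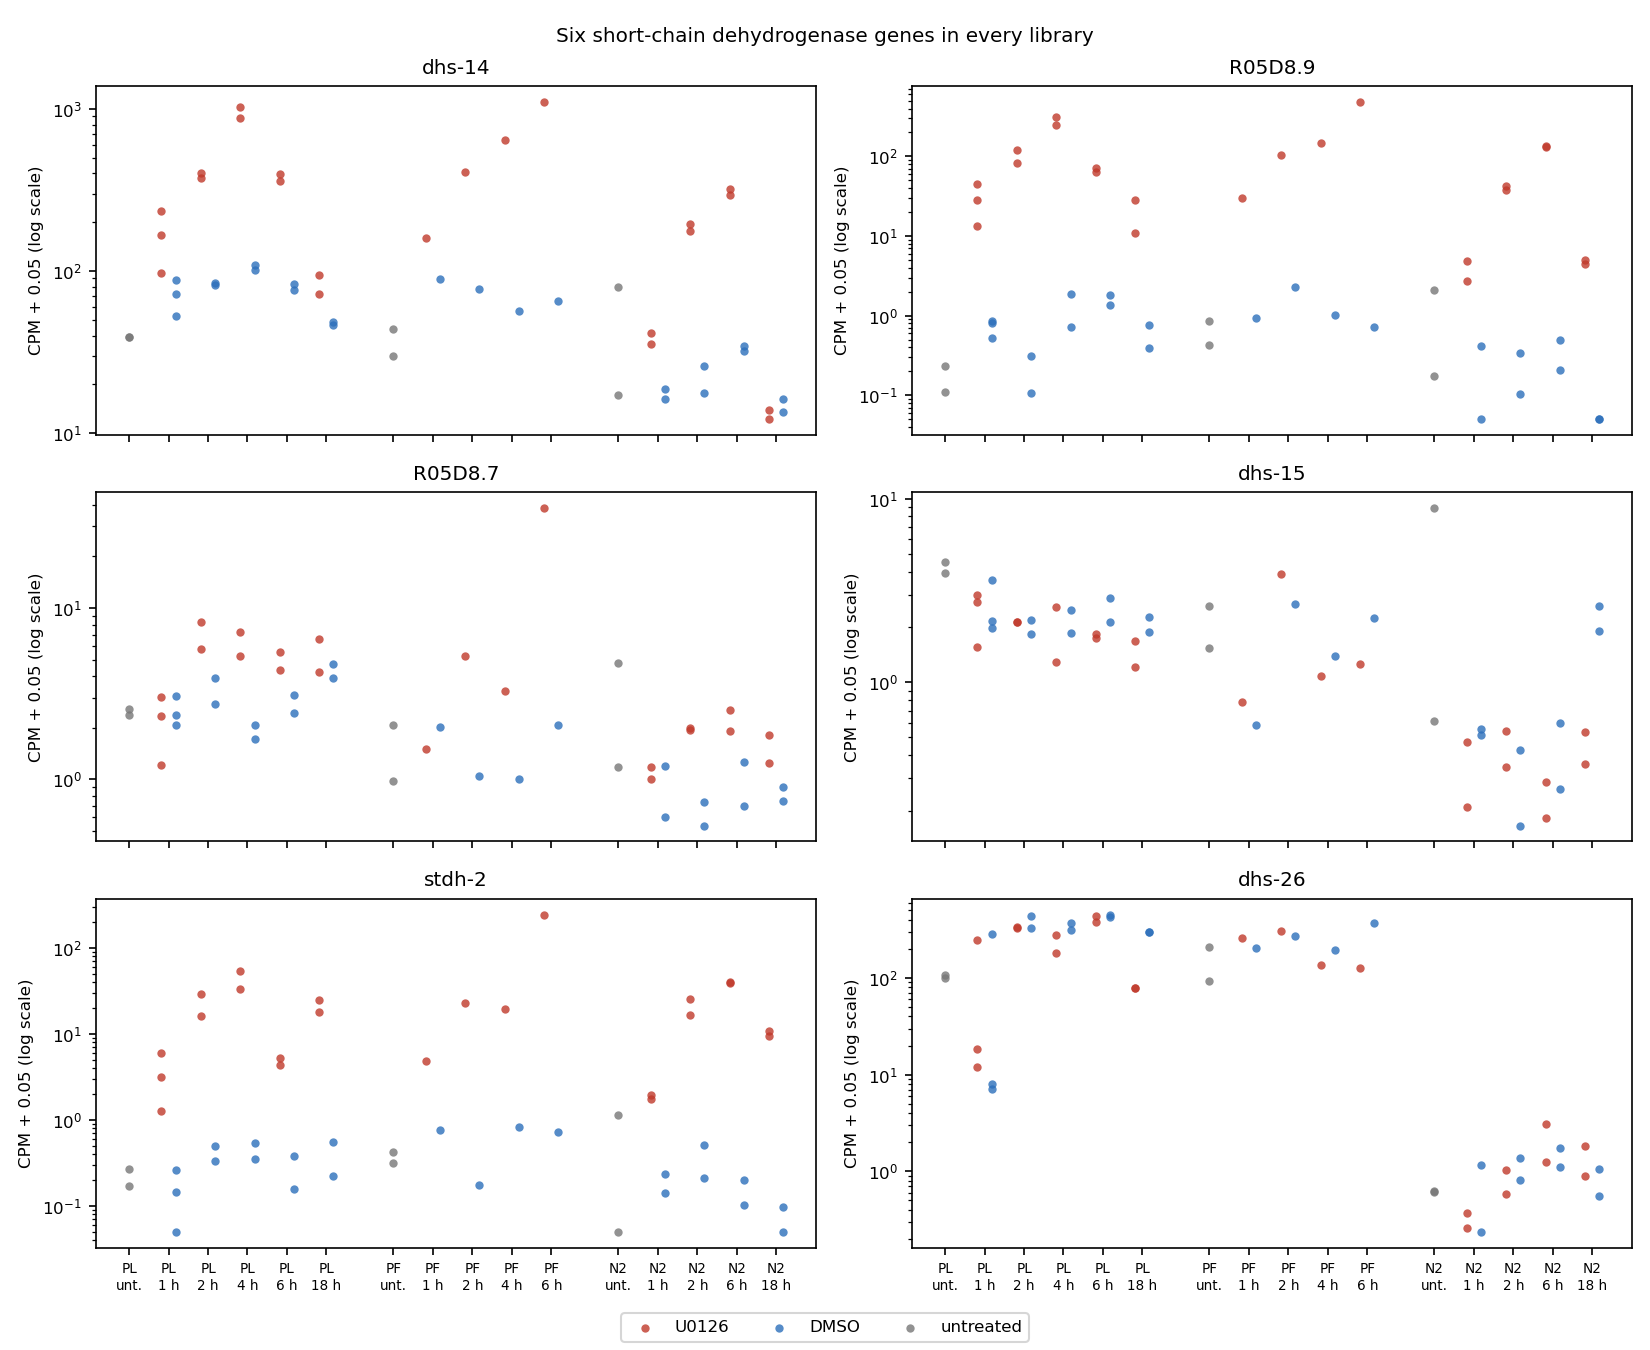
Level of each of the 6 genes in every library, as TMM-scaled CPM plus 0.05 on a log axis, by genotype and hour, with U0126 points left of DMSO points. R05D8.9 and stdh-2 are near zero in DMSO and high in U0126 in PL, PF and N2, whereas dhs-26 separates the mutant genotypes from N2, where it reaches at most 3.01 CPM.

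The gene stdh-2 was also near zero in DMSO and higher in U0126 in all 3 genotypes. In PL its U0126 libraries stood at 3.13, 1.23 and 5.87 CPM at 1 h, 16.2 and 28.7 CPM at 2 h and 53.4 and 33.2 CPM at 4 h, against 0 to 0.215 CPM, 0.287 to 0.455 CPM and 0.302 to 0.483 CPM in DMSO at those hours. At 6 h it stood at 5.21 and 4.30 CPM in U0126, against 0.327 and 0.109 CPM in DMSO, and at 18 h it was back at 17.7 and 24.5 CPM in U0126, against 0.171 and 0.507 CPM in DMSO. The U0126 and DMSO libraries did not overlap at any hour in PL. The log2 fold changes were 5.21 ± 0.82, 5.89 ± 0.85, 6.70 ± 0.91, 4.395 ± 0.95 and 5.96 ± 0.89 at 1, 2, 4, 6 and 18 h, and replicate 3 alone gave 4.71 at 1 h. In PL U0126 libraries stdh-2 was higher at 18 h than at 6 h, whereas R05D8.9 was lower at 18 h than at 6 h. Differences between hours within the drug were not tested.

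In N2, stdh-2 stood at 1.91 and 1.69 CPM in U0126 at 1 h, 25.1 and 16.5 CPM at 2 h and 40.1 and 39.4 CPM at 6 h. The N2 DMSO libraries held at most 0.462 CPM at these hours, and the log2 fold changes were 3.51 ± 0.94, 6.03 ± 0.86 and 8.49 ± 0.98. At 18 h it stood at 9.49 and 10.8 CPM in U0126, against 0 and 0.0463 CPM in DMSO. That is 481 counts against 1, a ratio of 356 with a 95% exact interval of 63.5 to 14070. In PF it stood at 4.86, 22.6, 19.3 and 243 CPM in U0126 at 1, 2, 4 and 6 h, against 0.714, 0.125, 0.768 and 0.676 CPM in DMSO, a log2 fold change of 7.09 ± 0.64 over the hours. As with R05D8.9, its highest level in the series was in the PF U0126 library at 6 h.

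The gene dhs-14 differed from these in having a substantial level without the drug. Its folds were smaller, and its CPM were the highest of the 4 R05D8 genes. In PL at 1 h it stood at 166, 97.3 and 233 CPM in U0126, against 72.1, 53.1 and 88.2 CPM in DMSO. At 2 h it stood at 404 and 372 CPM in U0126, against 84.1 and 81.6 CPM in DMSO. At 4 h it reached 1022 and 883 CPM in U0126, against 108.6 and 101.1 CPM in DMSO. The drug libraries again lay above the solvent libraries at each hour. It stood at 396 and 358 CPM in U0126 at 6 h, against 76.4 and 82.9 CPM in DMSO, and at 71.9 and 94.8 CPM in U0126 at 18 h, against 48.3 and 46.2 CPM in DMSO. The log2 fold changes were 1.22 ± 0.33, 2.23 ± 0.41, 3.18 ± 0.43, 2.24 ± 0.41 and 0.82 ± 0.40 from 1 to 18 h, and replicate 3 alone gave 1.40 at 1 h.

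In N2, dhs-14 stood at 35.4 and 41.6 CPM in U0126 at 1 h, against 18.7 and 16.1 CPM in DMSO. At 2 h it stood at 177.5 and 193.9 CPM in U0126, against 25.8 and 17.6 CPM in DMSO, and at 6 h at 319 and 295 CPM in U0126, against 34.4 and 32.1 CPM in DMSO. The log2 fold changes were 1.15 ± 0.40, 3.10 ± 0.42 and 3.20 ± 0.43. At 18 h the groups overlapped, with 13.8 and 12.2 CPM in U0126 and 16.2 and 13.4 CPM in DMSO, and a log2 fold change of -0.19 ± 0.40. R05D8.9 and stdh-2 were still far above their DMSO levels at that hour in the same libraries. In PF, dhs-14 stood at 159, 406, 645 and 1104 CPM in U0126 at 1, 2, 4 and 6 h, against 89.4, 77.3, 56.4 and 65.4 CPM in DMSO, a log2 fold change of 2.76 ± 0.44.

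Because dhs-14 and R05D8.9 are neighbours of similar length, their levels per kilobase of exon can be set side by side. R05D8.9 was at most 2.71 percent of the dhs-14 level per kilobase in any DMSO library and at most 2.55 percent in any untreated one. In N2 U0126 libraries the share was 7.13 to 10.7 percent at 1 h, 19.7 to 20.5 percent at 2 h, 39.0 to 43.2 percent at 6 h and 30.0 to 38.5 percent at 18 h. In PL U0126 libraries it was 12.9 to 17.8 percent at 1 h, 19.3 to 30.3 percent at 2 h, 26.6 to 28.4 percent at 4 h, 16.6 to 17.0 percent at 6 h and 14.3 to 27.6 percent at 18 h. In PF it was 17.4, 24.1, 21.1 and 40.99 percent at 1, 2, 4 and 6 h. The relative level of the neighbours was not fixed: in N2 it was higher at 6 h than at 1 h in every U0126 library, and dhs-14 stayed the higher of the pair in every library.

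**Figure D2:**
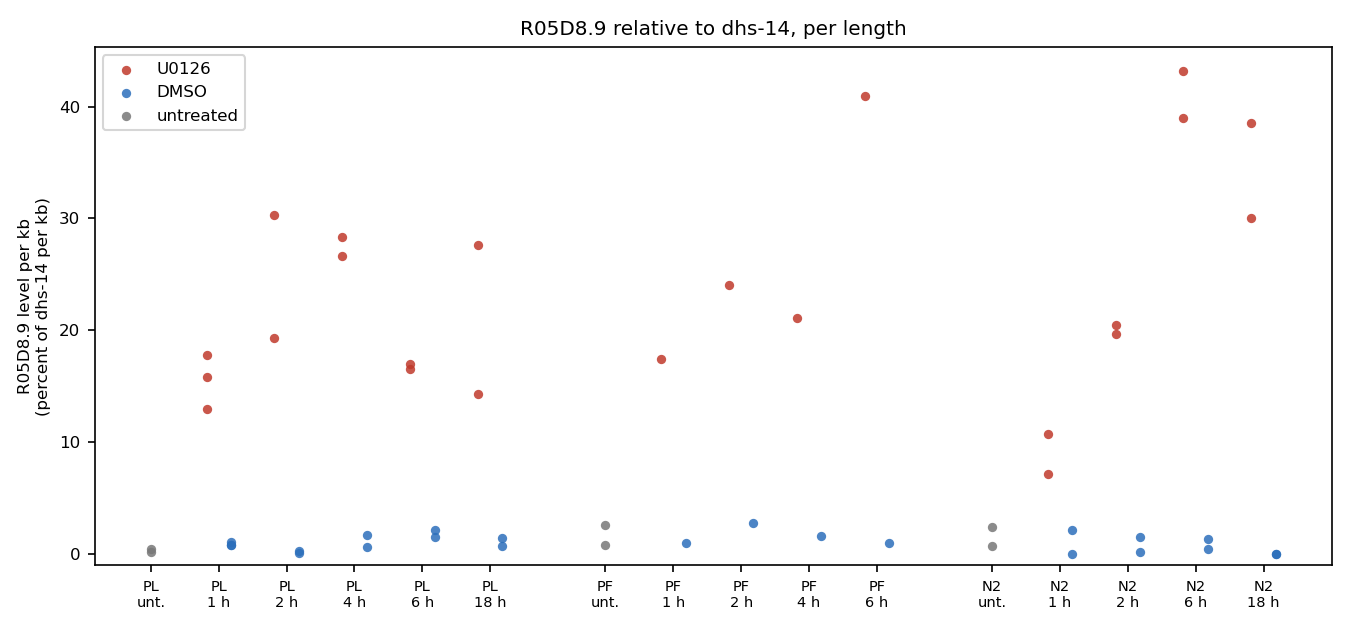
R05D8.9 per kilobase of exon as a percentage of dhs-14 per kilobase, by library, against hour, for U0126, DMSO and untreated worms of each genotype. Every U0126 library lies above every DMSO and untreated library, whose highest value is 2.71 percent, and the highest share is 43.2 percent in N2 at 6 h.

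R05D8.7, the first gene of the cluster by number, stood below 10 CPM in every library but 1. In PL U0126 it stood at 5.75 and 8.26 CPM at 2 h and 5.21 and 7.16 CPM at 4 h, against 2.70 and 3.83 CPM and 2.03 and 1.66 CPM in DMSO. Those libraries did not overlap, which groups of 2 libraries can also show without a difference. The log2 fold changes were 1.098 ± 0.47 and 1.73 ± 0.51. In N2 it stood at 1.90 and 1.96 CPM in U0126 at 2 h, against 0.488 and 0.693 CPM in DMSO, a log2 fold change of 1.69 ± 0.52. The other log2 fold changes were -0.18 ± 0.39, 0.85 ± 0.49 and 0.34 ± 0.48 in PL at 1, 6 and 18 h, with -0.01 at 1 h from replicate 3 alone, and 0.235 ± 0.53, 1.22 ± 0.50 and 0.94 ± 0.51 in N2 at 1, 6 and 18 h. The U0126 and DMSO libraries overlapped at 1 and 18 h in PL and at 1 h in N2. In PF at 6 h it stood at 38.2 CPM in U0126, against 2.03 CPM in DMSO, or 252 counts against 27 and a ratio of 18.8 (95% exact interval 12.6 to 29.1). That library was the exception, and it was also the highest for R05D8.9, stdh-2 and dhs-14. At 1 h in PF the ratio was 0.742.

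The last gene of the cluster, dhs-15, did not follow its neighbours. Its log2 fold change between U0126 and DMSO in PL was -0.07, 0.08, -0.18, -0.49 and -0.55 from 1 to 18 h, with -0.40 at 1 h from replicate 3 alone, and it was -0.06 ± 0.54 in PF. In N2 at 18 h it stood at 0.487 and 0.310 CPM in U0126, against 1.86 and 2.55 CPM in DMSO, a log2 fold change of -2.43 ± 0.72 from 20 counts against 81. The groups did not overlap there. At 1 h in N2 it was at 0.159 and 0.422 CPM in U0126 and 0.464 and 0.506 CPM in DMSO, a log2 fold change of -0.71 that was smaller than its SE of 0.85. In the N2 libraries at 18 h, 9 intestinal genes summed to 1117 and 1090 CPM in U0126, against 2673 and 2739 CPM in DMSO. There the 10 oocyte genes summed to 11480 and 11240 CPM in U0126, against 5980 and 5755 CPM in DMSO. Molting genes were lower in U0126 at that hour. The part of these sums in the values of the 6 genes was not tested.

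**Figure D3:**
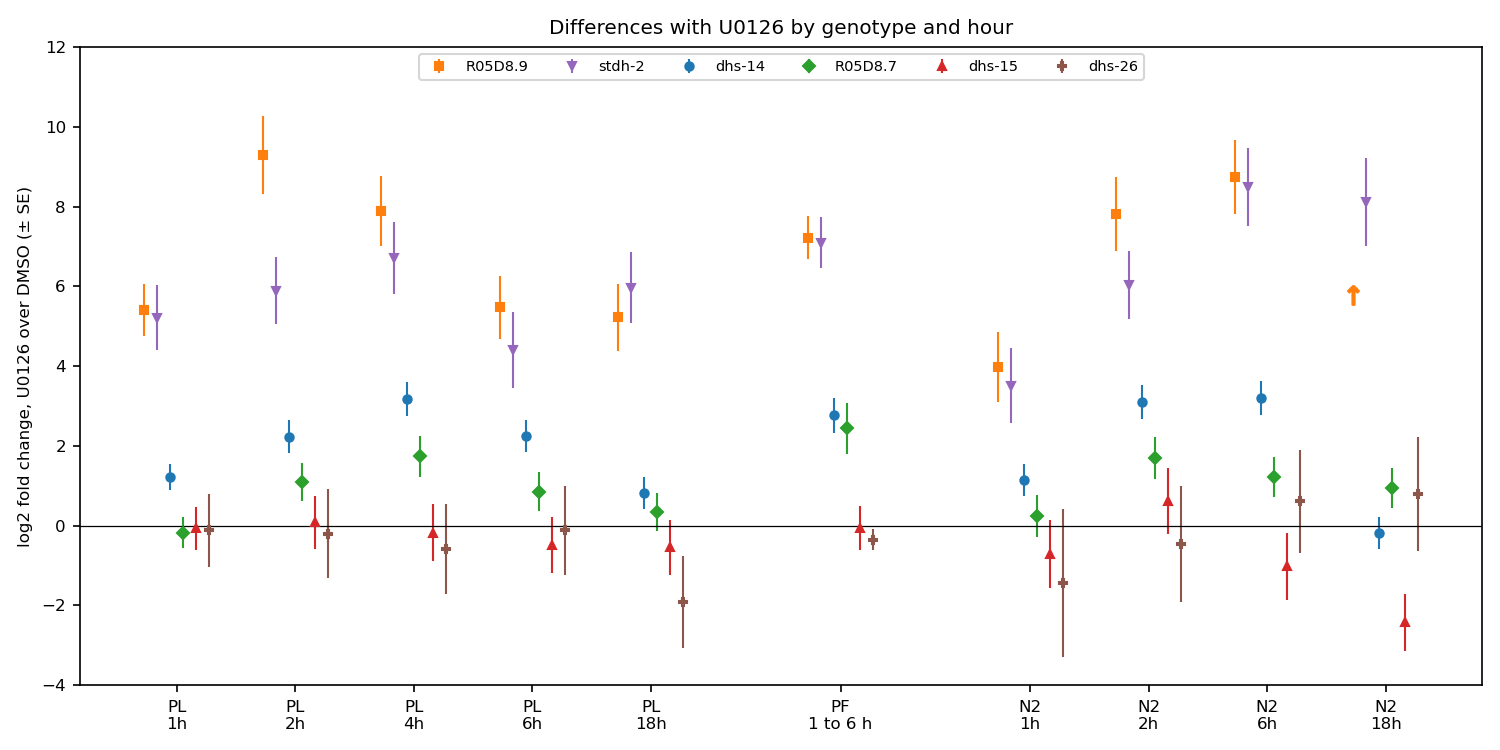
Log2 fold change of U0126 over DMSO for each of the 6 genes in each comparison, with the SE of the fit as bars. R05D8.9 and stdh-2 lie far above zero in all 10 comparisons and dhs-15 lies at or below 0.61; the arrow for R05D8.9 in N2 at 18 h is a lower bound of 55.4-fold, and the stdh-2 point there rests on 1 count in DMSO.

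The gene dhs-26 separated the mutants from N2 rather than the drug from the solvent. Over the 24 PL libraries its lowest, median and highest levels were 7.07, 292 and 453 CPM, and over the 10 PF libraries they were 94.0, 206 and 374 CPM. Over the 18 N2 libraries they were 0.186, 0.907 and 3.01 CPM. No PL or PF library overlapped an N2 library. Untreated worms stood at 100.0 and 108 CPM in PL and 94.0 and 208 CPM in PF, against 0.566 and 0.573 CPM in N2. The log2 fold change was 7.49 ± 1.57 for PL over N2 and 8.03 ± 1.60 for PF over N2, and it was -0.54 ± 1.12 for PL over PF. Without N2 untreated replicate 2 the differences from N2 were 7.50 and 8.04.

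In DMSO the log2 fold changes of dhs-26 in PL over N2 were 7.09 ± 1.51, 8.52 ± 1.59, 8.32 ± 1.57 and 8.66 ± 1.62 at 1, 2, 6 and 18 h. At 1 h the PL level rested on which libraries are read: replicates 1, 2 and 3 stood at 18.4, 11.9 and 246 CPM in U0126 and at 7.07, 7.99 and 287 CPM in DMSO. With replicate 3 alone the value at 1 h was 8.61 in DMSO and 9.82 in U0126, against 8.41 in U0126 with all 3 libraries. Over 1, 2 and 6 h in DMSO, PF was above N2 by 7.97 ± 0.26. Over 1 to 6 h in DMSO, PL and PF differed by 0.05 ± 0.80, and by 0.54 without the PL 1 h replicates 1 and 2.

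Sperm genes moved with dhs-26 across genotypes. Their summed level was 489 to 1927 CPM in PL and 1846 to 2941 CPM in PF, against 13.9 to 51.5 CPM in N2 without untreated replicate 2. In that N2 library, with 4034 CPM of sperm genes, dhs-26 stood at 0.573 CPM. In PL at 1 h, replicates 1 and 2 had 570 and 623 CPM of sperm genes in U0126 and 594 and 632 CPM in DMSO, against 1578 CPM in replicate 3 of each treatment. At 18 h the PL libraries had 489 and 657 CPM of sperm genes in U0126 and 570 and 744.5 CPM in DMSO. Their dhs-26 level was 78.3 and 78.8 CPM in U0126 and 299.5 and 297.3 CPM in DMSO, above the 1 h replicates 1 and 2. The 10 oocyte genes summed to 146 to 9489 CPM in PL and 136 to 301 CPM in PF, against 5755 to 11480 CPM in N2 without that library. The 5 hypodermis genes summed to 577 to 4086 CPM in PL and 1511 to 6111 CPM in PF, against 233 to 1531 CPM in those N2 libraries, and at 1 h PL replicates 1 and 2 had 1261 to 1647 CPM, against 3901 and 3163 CPM in replicate 3. The part that the cell types of the worm play in the dhs-26 level was not tested.

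**Figure D4:**
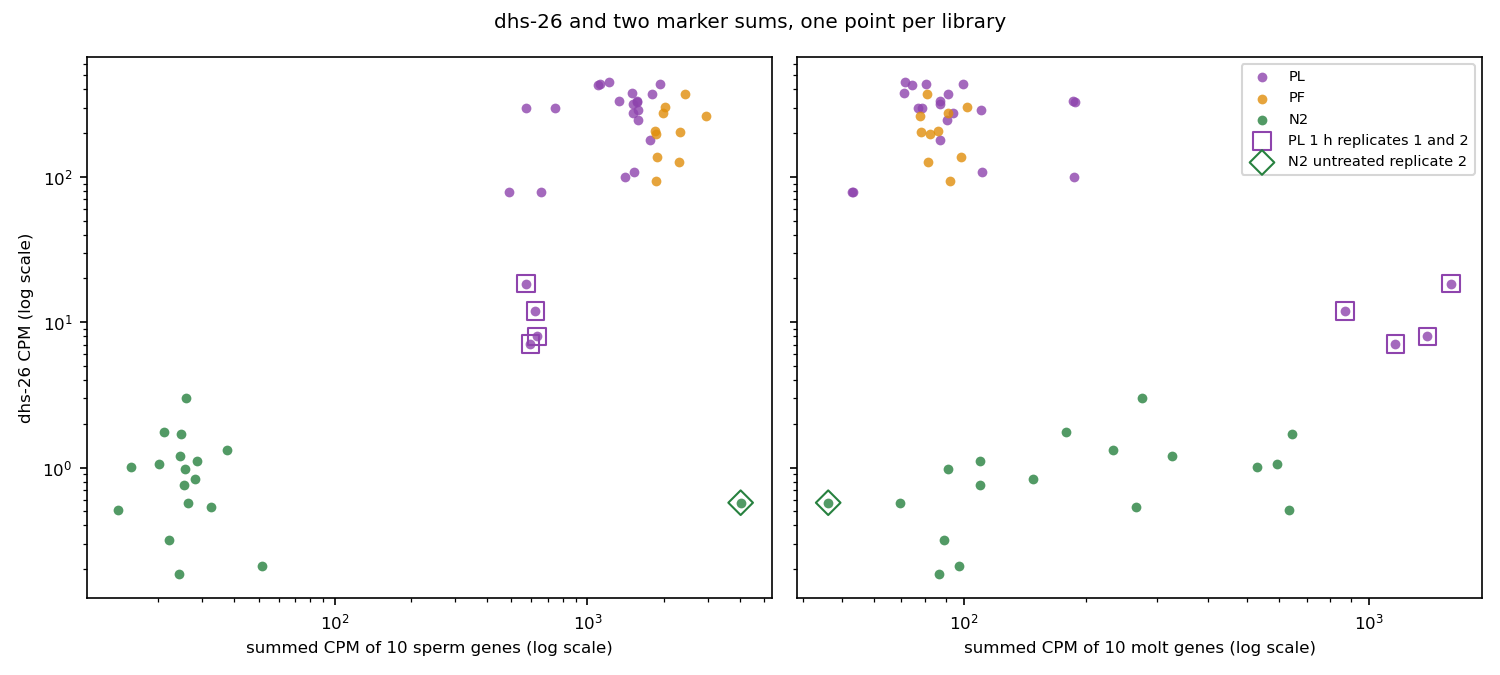
Level of dhs-26 in CPM against the summed CPM of 10 sperm genes and of 10 molting genes, 1 point per library, on log axes. N2 libraries lie at or below 3.01 CPM of dhs-26, including the diamond for N2 untreated replicate 2 at 4034 CPM of sperm genes, and the squares for PL 1 h replicates 1 and 2 lie between the N2 points and the other PL points.

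Between U0126 and DMSO dhs-26 differed by less than between genotypes. In PL at 18 h it stood at 78.3 and 78.8 CPM in U0126, against 299.5 and 297.3 CPM in DMSO, a log2 fold change of -1.93 ± 1.16 with no overlap. Each SE of dhs-26 from the fit of all libraries draws on its spread in every group, not on the libraries compared alone. These groups include PL DMSO at 1 h, where it ran from 7.07 to 287 CPM. In the PL libraries at 18 h the summed level of 10 oocyte genes was 9489 and 6727 CPM in U0126, against 3544 and 2750 CPM in DMSO. Sperm genes there stood at 489 and 657 CPM in U0126, against 570 and 744.5 CPM in DMSO. Whether either moves the dhs-26 value was not tested. At 4 h the PL values were 276 and 180 CPM in U0126 and 371 and 315 CPM in DMSO, a log2 fold change of -0.59 ± 1.12. In PF the ratio of U0126 to DMSO was 1.29, 1.11, 0.693 and 0.340 at 1, 2, 4 and 6 h, with an exact interval of 0.315 to 0.366 at 6 h. In N2 the U0126 and DMSO libraries overlapped at every hour.

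The levels of the genes that were higher in U0126 also differed by genotype. In DMSO dhs-14 was higher in PL than in N2, with log2 fold changes of 2.03, 1.94, 1.26 and 1.68 at 1, 2, 6 and 18 h, and in PF than in N2, with 1.67 ± 0.22 over 1, 2 and 6 h. In U0126 the PL over N2 difference of dhs-14 was 2.10 at 1 h, 1.06 at 2 h, 0.30 at 6 h and 2.68 at 18 h, so the genotypes were closest at 6 h. With PL replicate 3 alone the dhs-14 difference at 1 h was 2.345 in DMSO and 2.60 in U0126. R05D8.9 in U0126 was above N2 in PL by 2.93 at 1 h, 1.36 at 2 h and 2.05 at 18 h and below it by 0.99 at 6 h, on the log2 scale, and with PL replicate 3 alone the difference at 1 h was 3.56. For stdh-2 at 6 h the U0126 libraries averaged 4.76 CPM in PL and 39.8 CPM in N2, a log2 fold change of -3.06 ± 0.71. At 1, 2 and 18 h stdh-2 in U0126 averaged 3.41, 22.4 and 21.1 CPM in PL, against 1.80, 20.8 and 10.1 CPM in N2. PL replicate 3 alone stood at 5.87 CPM at 1 h. The 9 intestinal marker genes, whose summed level ran from 2839 to 8365 CPM in PL, 4491 to 8384 CPM in PF and 1090 to 4289 CPM in N2, also moved with genotype, and their part in these differences was not tested. The difference between drug responses of the genotypes was not tested.

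R05D8.7 was higher in PL than in N2 in DMSO by 1.46, 2.45, 1.54 and 2.45 on the log2 scale at 1, 2, 6 and 18 h. With PL replicate 3 alone the value at 1 h was 1.76 for R05D8.7 and 2.84 for dhs-15. For dhs-15 the same difference was 2.33 ± 0.70, 2.93 ± 0.78 and 2.65 ± 0.75 at 1, 2 and 6 h and -0.13 ± 0.67 at 18 h. The N2 libraries in DMSO held 0.116 to 0.548 CPM of dhs-15 at 1 to 6 h and 1.86 and 2.55 CPM at 18 h, while PL held 1.78 to 3.55 CPM over all hours in DMSO. For PF over N2 at 1 to 6 h the log2 fold change was 2.18 ± 0.61 for dhs-15 and 0.94 for R05D8.7.

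Differences between hours in DMSO were not the measure that chose the genes. The hour tests below include DMSO against untreated worms, where hour, solvent and the move into liquid cannot be told apart. The DMSO and untreated libraries did enter the drug and genotype differences that chose them, so the tests are not fully independent of the choice. The tests come from edgeR's quasi-likelihood test with Benjamini-Hochberg adjustment over all genes. In N2 DMSO libraries the oocyte genes summed to 9577 and 9129 CPM at 2 h and 7457 and 7365 CPM at 6 h. At 18 h they summed to 5980 and 5755 CPM, and their part in the calls below was not tested. Between 18 h and 6 h in N2, where 5.96 percent of genes passed, 1 of the 6 genes passed. It was dhs-15, which averaged 2.20 CPM at 18 h and 0.380 CPM at 6 h, a log2 fold change of 2.51 ± 0.73 with an edgeR adjusted p of 0.0404. Leaving out any single library of that comparison raised this adjusted p in edgeR to between 0.113 and 0.346. The dhs-14 value between the same hours, -1.17 ± 0.40, did not pass, with an edgeR adjusted p of 0.0847. It passed in the edgeR fit without N2 untreated replicate 2, with an adjusted p of 0.00375, and that fit called 16.4 percent of all genes. Between 18 h and 2 h in N2, where 27.4 percent of genes passed, dhs-15 was again the 1 member that passed, at 3.10 ± 0.78 and an edgeR adjusted p of 0.00461, which became 0.078 without DMSO 2 h replicate 2.

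Between 2 h in DMSO and untreated N2 worms, where 32.1 percent of genes passed, 4 of the 6 genes were called lower. They were R05D8.7 at -2.31, dhs-14 at -1.17, R05D8.9 at -2.66 and dhs-15 at -4.19 on the log2 scale. All 4 calls rested on N2 untreated replicate 2, which held 80.1 CPM of dhs-14 and 8.82 CPM of dhs-15, against 17.2 and 0.566 CPM in replicate 1. Without that library none of the 6 passed in edgeR, and the dhs-14 value became 0.34 with an adjusted p of 0.836.

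In PL none of the 6 genes passed between hours in DMSO or between DMSO and untreated worms, by edgeR or by DESeq2. The share of genes that passed in edgeR was 3.56 percent for 18 h over 6 h, 13.6 percent for 18 h over 2 h and 1.15 percent for 2 h over untreated. An unadjusted p under 0.05 was found for 0, 0 and 1 members in these comparisons, and for 3134, 4806 and 1341 of all 16462 genes. The 1 gene was dhs-14, with 84.1 and 81.6 CPM at 2 h in DMSO against 39.4 and 39.3 CPM in untreated worms, a log2 fold change of 1.07 and an edgeR adjusted p of 0.311. Without N2 untreated replicate 2, which also sets the shared spread, dhs-14 passed in edgeR in all 3 comparisons, at -0.75, -0.81 and 1.07 with adjusted p-values of 0.0418, 0.0171 and 0.0183. That fit called 19.7, 35.2 and 2.99 percent of all genes in these comparisons. In PF, where 0.0802 percent of genes passed between 1 to 6 h in DMSO and untreated worms, none of the 4 members tested passed in edgeR. There dhs-14 was higher by 0.93 ± 0.23 with an edgeR adjusted p of 0.315, 2 of the 4 had an unadjusted p under 0.05, as had 6.28 percent of all genes, and DESeq2 called dhs-14 alone of the 4 with an adjusted p of 0.0357, where it called 0.864 percent of all genes.

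The worm genome names many other genes of the family, and 34 of them were in the tables, among them dhs, stdh, let-767 and decr genes. Of these, 32 were tested in the fit of all libraries, while let-767 and stdh-4 did not pass the low-count filter. Few of them were called between U0126 and DMSO before 18 h. In PL, where 0.249, 0.948, 1.25 and 0.231 percent of all genes were called at 1, 2, 4 and 6 h, the family had 0, 1, 1 and 0 genes called higher and 0, 0, 1 and 1 called lower. In N2, where 0.0243, 0.711 and 1.42 percent were called at 1, 2 and 6 h, it had 0, 1 and 1 called higher and none lower. In PF, where 0.641 percent of genes were called, 1 of 31 was higher.

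The family gene called higher each time was dhs-23. In PL it averaged 32.8 CPM in U0126 and 3.15 CPM in DMSO at 2 h, with an edgeR adjusted p of 0.00123, and 40.3 CPM in U0126 and 2.10 CPM in DMSO at 4 h, with an edgeR adjusted p of 0.000133. In N2 it averaged 27.4 CPM in U0126 and 2.01 CPM in DMSO at 6 h, a log2 fold change of 3.76 with an edgeR adjusted p of 0.00047. In PF the log2 fold change was 3.58, with 60.5 CPM in U0126 and 3.81 CPM in DMSO and an edgeR adjusted p of 0.0261. The gene called lower was dhs-21, at -1.304 in PL at 4 h and -1.38 at 6 h, with edgeR adjusted p-values of 0.0174 and 0.0386. At 1 to 6 h the median log2 fold change of the family ran from -0.06 in N2 at 6 h to 0.10 in PL at 2 h, and that of all genes from -0.08 to 0.09 over the same comparisons.

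At 18 h more of the family was called. In N2, where 45.3 percent of all genes were called, 5 of 32 were higher and 11 lower, and the family median was -0.52 against -0.40 for all genes. Among those lower were dhs-21 at -1.68, dhs-28 at -1.46, dhs-29 at -2.06 and dhs-19 at -1.13 on the log2 scale. In PL, where 14.0 percent were called, 4 were higher and 2 lower, with a family median of -0.21 against -0.15 for all genes. There dhs-11 was higher by 1.92 and dhs-22 by 0.62, and dhs-21 was lower, at -1.46, as was dhs-30, at -0.62.

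**Figure D5:**
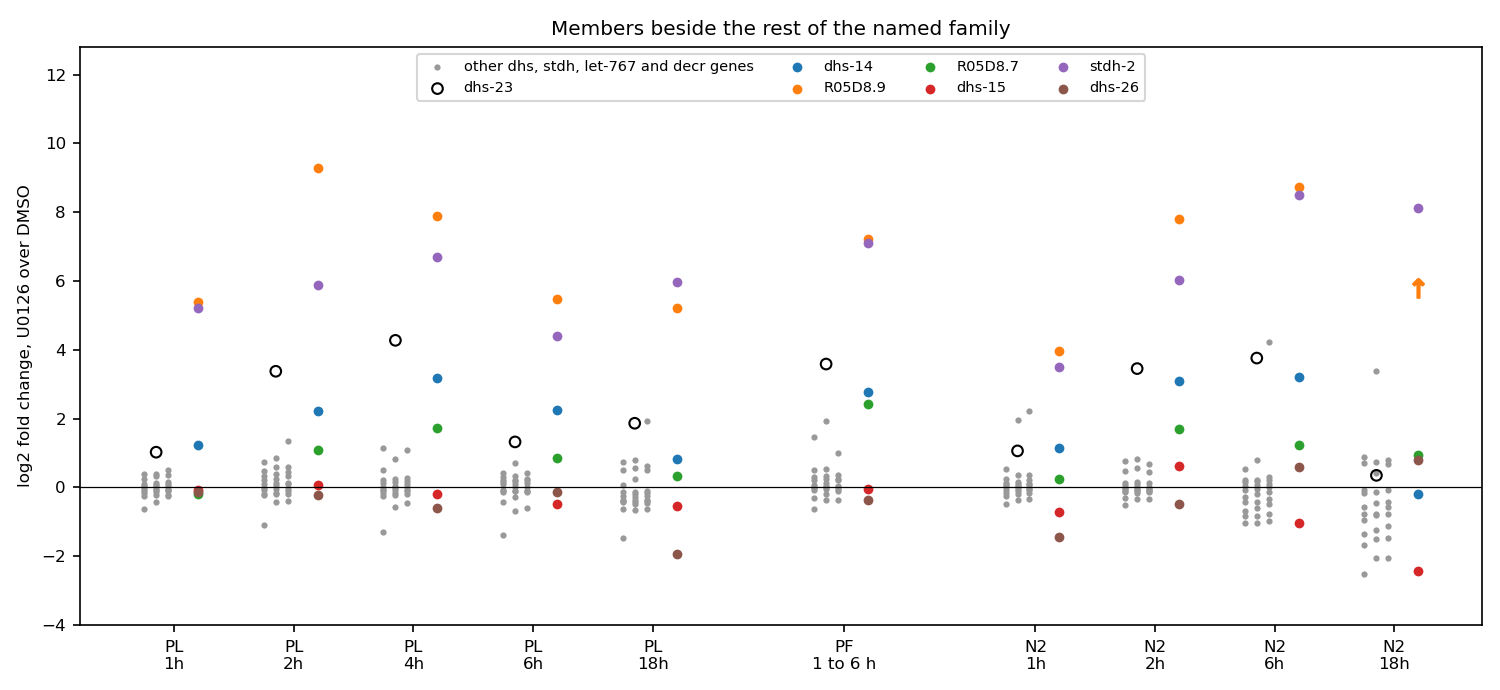
Log2 fold change of U0126 over DMSO for other family genes with over 3 counts in both groups (grey), dhs-23 (open circle) and the 6 genes (coloured), by comparison. No grey point is let-767, which was not tested. At 1 to 6 h R05D8.9 and stdh-2 lie above 3 in every comparison, dhs-23 lies at 3.45 in N2 at 2 h and 4.27 in PL at 4 h, and the grey point at 4.24 in N2 at 6 h is stdh-3, which was not called there.

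In DMSO at 2 h, where 66.1 percent of genes differed between PL and N2, 15 of 32 family genes were higher in PL and 6 lower, with dhs-9 at 2.21, dhs-2 at 1.81, dhs-30 at 1.03 and dhs-17 at -2.36 on the log2 scale. The family median was 0.83 against 0.46 for all genes. In PF over N2 in DMSO, where 74.3 percent differed, 16 of 31 were higher and 6 lower. Among those higher were decr-1.2 at 7.98 and decr-1.3 at 8.36, genes related to dienoyl-CoA reductases of fatty acid breakdown, and stdh-1 at 1.56, and dhs-1 was lower, at -1.60. Between PL and PF in DMSO, where 8.79 percent differed, 1 of 31 was called, dhs-9, which was higher in PL by 0.72.

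Likeness of pattern was measured as Pearson's correlation of log2 CPM over the 29 group means, among 13028 genes; these groups share their hours and solvents, and no test goes with it. The 3 genes most like R05D8.9 were E02C12.10 at 0.969, the cytochrome P450 gene cyp-33C1 at 0.966 and E02C12.6 at 0.963. For stdh-2 they were C52A10.4 at 0.949, the cadmium-responsive gene cdr-1 at 0.945 and E02C12.10 at 0.943, and for dhs-14 they were cyp-34A8 at 0.933, B0213.18 at 0.923 and cyp-33C2 at 0.92. Among the members R05D8.9 and stdh-2, which are not neighbours, stood at 0.935, while R05D8.9 and dhs-15 of the same cluster stood at -0.054. The members were chosen by drug and genotype differences in these libraries, so likeness among them can follow from that choice. R05D8.9 and dhs-14 stood at 0.88, and R05D8.7 and dhs-14 at 0.76.

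The neighbours of dhs-26 in pattern were other genes. They were T22B7.7 at 0.993, the nuclear hormone receptor gene nhr-76 at 0.976 and B0395.3 at 0.961. For dhs-15 they were T28D6.5 at 0.931, the acetylcholine receptor subunit gene deg-3 at 0.914 and ilcr-1 at 0.905. For R05D8.7 they were cytb-5.1, a cytochrome b5 gene, at 0.911, F20G2.1 at 0.896 and nape-1 at 0.866. The gene dhs-26 stood at 0.67 with dhs-15 and at 0.158 with stdh-2.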

How the data were processed

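Per the labels' protocols, Trizol was used to extract RNA, and TruSeq libraries were made from its polyA fraction. The submitters' processing notes name CASAVA, TopHat and DESeq as tools and ce10 as the build. Their versions, the counter and its strand setting are not given in the sources. The authors deposited raw counts of reads per gene, 1 table for each of 52 libraries. Lines for unassigned reads (48.23 to 54.76 percent with no feature and 0.31 to 0.451 percent ambiguous in 51 libraries, blank in PL U0126 2 h replicate 2) were left out. Names and exon lengths came from Ensembl WBcel235 and RefSeq tables, and 44118 of 45461 IDs had names; no coordinates are given, as the builds differ.

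All libraries were fitted together with 1 coefficient for each of 29 groups (16462 genes, 23 residual degrees of freedom) by edgeR 4.0.16 in R 4.3.3: TMM scaling, quasi-likelihood F test, Benjamini-Hochberg adjusted p under 0.05. SE is the log2 fold change over the square root of F, and it rests on the spread over all groups of a fit. Of the comparisons over PF hours, drug (13893 genes), PL over PF (14998) and PF over N2 (14493) used the hour as a factor. DMSO over untreated in PF (13716) pooled the hours without that factor. DESeq2 1.42.0 was an alternative. The fits were tested on simulated data with 1 spread (dispersion 0.06) for all genes and no library set apart. That test does not cover groups with a deviating library. The 6 genes and all lists were chosen with earlier results of these data known. The text names, of the family, up to 4 called genes with the smallest adjusted p in a comparison, and 3 genes most like each member; dhs-19, dhs-28 and dhs-29 come from that rule. Floors and intervals cover counting error only.

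Same-numbered PL 1 h libraries of the 2 treatments deviated together (correlation 0.801, 0.855 and 0.922 over 8098 genes). Replicates 1 and 2 also did so across numbers (0.634 and 0.685), while replicate 3 against either ran from -0.859 to -0.774. The numbers thus set replicate 3 apart, but they are not shown to pair replicates 1 and 2, and the main fit did not use them. Blocked on these numbers, no drug value of the 6 genes at that hour moved by over 1.5 times other than that of dhs-26. All replicate pairs differed by more than sampling noise.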

Additional observations from a re-analysis of the deposited data

How the results depend on the processing

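Alternatives were RLE scaling, no filter on low counts, DESeq2, a fit of only the libraries compared, a replicate block, a fit without N2 untreated replicate 2, and each library left out in turn, with the dispersion trend of all libraries kept. The fits without PL 1 h replicates 1 and 2 for the genotype differences, and the crossed pairing, were chosen after seeing the data. With no replicate left out, 313 drug values of the 6 genes moved by less than the spread between replicates (1 SD) and 41 by more; of the genotype values these were 374 and 75, and 3 changed sign. With a replicate left out these were 154 and 97 drug values, with 1 sign change, and 197 and 106 genotype values, with 3. For R05D8.9 in N2 at 18 h, where the solvent had no count, the fitted value was 9.05, and it was 9.21 with RLE scaling, 9.31 with no filter, 9.26 in DESeq2, 9.75 with only the libraries compared and 9.78 with the replicate block.

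With single libraries left out, the R05D8.9 drug value ranged from 3.28 to 8.86, 7.06 to 9.30, 8.37 to 9.82 and 9.28 to 9.35 in N2 at 1, 2, 6 and 18 h, and from 4.94 to 5.74, 8.57 to 10.59, 7.27 to 8.68, 5.27 to 5.69 and 4.41 to 5.80 in PL at 1, 2, 4, 6 and 18 h. The 8.86 in N2 at 1 h comes from leaving out DMSO replicate 2, which leaves a solvent group with no count, and is no bound. In PF, leaving out an hour, it ranged from 5.97 to 8.09. For dhs-26 these ranges in PL over N2 were 7.43 to 7.55 untreated, 3.36 to 8.92, 8.03 to 8.82, 8.09 to 8.77 and 8.35 to 9.30 in DMSO at 1, 2, 6 and 18 h, and 5.81 to 8.93, 8.39 to 9.25, 6.83 to 8.16 and 5.19 to 6.16 in U0126. They were 7.34 to 8.49 in PF over N2 untreated, 7.98 to 8.0 in DMSO, and -0.16 to 0.55 in PL over PF. The wide range in DMSO at 1 h follows from PL replicate 3, without which the value was lowest.

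Other dhs-26 values that moved by more than the spread between replicates, PL over N2, were 7.56 untreated with no filter and 7.41 with only the libraries compared or with the replicate block; 8.602 with RLE scaling, 8.62 in DESeq2, 8.58 with only the libraries compared and 8.58 with the block at 6 h in DMSO; and 3.31, 8.95 and 5.56 with the block at 1 h in DMSO, 18 h in DMSO and 1 h in U0126. The block at 1 h leaves out PL replicate 3.

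Of the hour tests in DMSO, the number of the 6 genes that passed in N2 was 1 for 18 h over 6 h, but 2 without N2 untreated replicate 2 and 3 with DESeq2, with only the libraries compared or with the block; 5.96, 16.4, 10.4, 46.8 and 46.7 percent of all genes passed in these fits. For 18 h over 2 h it was 1, but 2 with RLE scaling, without that library or with the block, 4 with no filter and 3 with DESeq2; of all genes 27.4, 39.7, 46.8, 49.5, 20.3 and 43.5 percent passed. For 2 h over untreated it was 4, but 0 without that library, with only the libraries compared or with the block; of all genes 32.1 percent passed, but 0.863, 0 and 0. In PL it was 0 in each comparison, but 1, 1 and 1 without that library, 3, 2 and 3 with only the libraries compared and 3, 2 and 3 with the block, for 18 h over 6 h, 18 h over 2 h and 2 h over untreated. Of all genes 3.56, 13.6 and 1.15 percent passed, against 19.7, 35.2 and 2.99, then 30.8, 40.4 and 7.85, and 34.3, 44.2 and 10.7 percent with the block. In PF it was 0, but 2 with no filter and 1 with DESeq2, where 0.0802, 1.75 and 0.864 percent of all genes passed. With single libraries left out these counts ran from 0 to 0, 1 to 1 and 0 to 5 in N2 and from 0 to 0 in PL and PF. Without DMSO 2 h replicate 2 the gene that passed for 18 h over 2 h in N2 was dhs-14, at -1.17 with an edgeR adjusted p of 0.0495, and not dhs-15. The adjusted p of dhs-15 for 18 h over 6 h in N2 was 0.0519 with RLE scaling and 0.106 with no filter in edgeR.

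Values that changed sign were dhs-26 between U0126 and DMSO in N2 at 1 h, at 0.59 without DMSO replicate 2 and otherwise down to -2.10, and those that used N2 untreated replicate 2. Without it, in the full refit and with the kept trend, dhs-14 for 2 h over untreated was 0.34 in both, R05D8.9 was 0.39 and 0.40, R05D8.9 in PL over N2 untreated was 0.16 and 0.14, stdh-2 there was 4.41 and 4.39, fitted against no count, and dhs-15 in PF over N2 untreated was 1.85 and 1.84. With another library left out these 5 values reached -1.89, -3.92, -3.997, -2.54 and -2.10.

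The number of genes called over the whole table moved more. Between U0126 and DMSO it was 4 in N2 at 1 h, against 61 in DESeq2 and 267 with the block, 233 in N2 at 6 h, against 717 without N2 untreated replicate 2, and 38 in PL at 6 h, against 445 without it. For 2 h over untreated in N2 it was 5278, and from 145 to 11082 with a library left out. For 18 h over 6 h in PL it was 586, against 3241. In PF it was 89, against 398 with no filter. Replicate numbers were used as a block only as an alternative, since with 2 pairs they are not shown to pair libraries; the correlation of same-numbered libraries was 0.615, 0.614, -0.337 and -0.037 in N2 at 1, 2, 6 and 18 h and 0.143, 0.208, 0.131 and 0.567 in PL at 2, 4, 6 and 18 h. At 6 h in N2 the block called 4767 genes and 6002 with the numbers crossed. Crossed numbers gave 2869 genes for PL over PF untreated, against 2162 with the block, and 9776 for PL over N2 in U0126 at 18 h, against 9832.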

Other observations

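A further steroid dehydrogenase relative, stdh-3, was not called in any drug comparison and was looked at only after its values were seen. In N2 it had 1 count in U0126 and 0 in DMSO at 1 h, 4 in U0126 and 2 in DMSO at 18 h and 16 in U0126 and 0 in DMSO at 2 h, and it had 92 in U0126 and 4 in DMSO at 6 h, where its log2 fold change was 4.24 with an edgeR adjusted p of 0.0559. In PL it had 27 counts in U0126 and 1 in DMSO at 2 h and 23 in U0126 and 0 in DMSO at 4 h, but 8 in U0126 and 2 in DMSO at 1 h, 1 in each at 6 h and 6 in U0126 and 1 in DMSO at 18 h, and in PF it had 51 in U0126 and 0 in DMSO over the 4 hours.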
